A study of Mus musculus with 16 samples.

Results

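Mast cells and basophils are the granule-bearing cells of the allergic response, and 9 genes by which they are recognised were followed here through cultures that were grown to give macrophages. The genes are Mcpt8, Prss34, Cpa3, Ms4a2, Fcer1a, Kit, Gata2, Hdc and Cd200r3, chosen by symbol from the 22287 genes of the count table, and all 9 were present in it. Bone marrow of C57BL/6J mice aged 8 weeks was kept for 7 days in GM-CSF (GM) or M-CSF (M), on tissue culture treated plastic (TC) or on untreated plastic (noTC), and then given vehicle (steady state) or LPS for 3 h. This gave 8 groups of 2 libraries, named GM-TC, M-TC, GM-noTC or M-noTC after growth factor and dish, with LPS added to the name for the treated ones. No sort or enrichment of cells before culture is described, and whether loosely attached cells were kept when RNA was taken is not stated. The study's methods give a higher seeding density for GM-CSF than for M-CSF, so growth factor and density cannot be told apart.

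Mast cells and basophils arise from progenitors that carry the receptor tyrosine kinase KIT, and the transcription factor GATA2 is required for both lineages. Their surface carries the high affinity IgE receptor, made of an alpha chain (Fcer1a), a beta chain (Ms4a2) and a gamma chain shared with other Fc receptors. When IgE on the receptor is crosslinked, the cells release histamine, made by histidine decarboxylase (Hdc), and proteases from their granules. In mouse, Mcpt8 and Prss34 encode basophil proteases, Cpa3 encodes the carboxypeptidase of mast cell granules, which basophils also make, and Cd200r3 encodes an activating receptor of both cell types. Kit, Gata2 and Hdc are not restricted to these cells: Kit and Gata2 are also used by blood progenitors, and Hdc can be made by stimulated myeloid cells.

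GATA2 binds DNA at a short motif, and the letters AGATAA, then those of AGATAG, of TGATAA and lastly of TGATAG were searched on both strands of the 250 bases before the start of each gene in RefSeq (GRCm38.p6). Windows were found for all 9 genes, and 6 of the 9 (66.67%) held the motif, beside 29.75% of 27025 genes. The 3 windows below belong to the granule proteases and the receptor whose counts are described next, with the motif in capitals on the strand of the gene. They are the windows of Prss34 (chr17:25298144-25298393, plus strand), Cpa3 (chr3:20242182-20242431, minus strand) and Cd200r3 (chr16:44943428-44943677, plus strand).
Prss34: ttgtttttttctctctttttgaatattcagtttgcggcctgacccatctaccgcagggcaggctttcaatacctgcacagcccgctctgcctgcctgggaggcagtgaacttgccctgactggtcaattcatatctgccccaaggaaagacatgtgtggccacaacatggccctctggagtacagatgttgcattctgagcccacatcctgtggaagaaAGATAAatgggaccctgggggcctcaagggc
Cpa3: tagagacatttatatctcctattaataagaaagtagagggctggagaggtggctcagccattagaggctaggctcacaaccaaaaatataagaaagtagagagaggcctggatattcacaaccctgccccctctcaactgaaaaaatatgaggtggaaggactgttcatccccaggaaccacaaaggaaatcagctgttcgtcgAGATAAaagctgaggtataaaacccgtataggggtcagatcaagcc
Cd200r3: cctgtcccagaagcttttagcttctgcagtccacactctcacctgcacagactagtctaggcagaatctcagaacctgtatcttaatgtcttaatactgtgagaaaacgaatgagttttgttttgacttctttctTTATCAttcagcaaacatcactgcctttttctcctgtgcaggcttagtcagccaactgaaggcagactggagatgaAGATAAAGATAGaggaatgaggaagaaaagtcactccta
The motif began 31 bases before the start of Prss34 and 46 bases before that of Cpa3. In Cd200r3 it was found at 115, 39 and 33 bases, the last pair side by side and the farthest on the opposite strand. Ms4a2 held 3 copies, Fcer1a held 1 at 92 bases and Hdc held 1 at 221 bases. The windows of Mcpt8, Kit and Gata2 held none of these letters. A match in the letters is a description of the window, and binding was not measured.

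Expression was measured by RNA-seq in 16 libraries of 17527802 to 31458363 counts. A level is given in counts, or in CPM, the count as a share of the library's total after scaling by TMM factors, which ran from 1.11 to 1.39 at steady state and from 0.778 to 0.842 after LPS. A library with 3 counts or fewer of a gene was held to be at the floor, which lay between 0.0697 and 0.174 CPM. The macrophage genes were abundant in all cultures: lysozyme (Lyz2) lay between 33795 and 41576 CPM in the GM libraries and between 14945 and 21086 CPM in the M libraries. A gene was called at a Benjamini-Hochberg adjusted p under 0.05 in edgeR's quasi-likelihood test over 12514 genes. Of the 9 genes, 6 passed the expression filter (Prss34, Cpa3, Kit, Gata2, Hdc and Cd200r3), and Mcpt8, Ms4a2 and Fcer1a had too few counts. In bulk RNA, fewer cells of a type and less RNA per cell cannot be told apart.

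The genes that are most particular to mast cells and basophils were counted in a few reads per library, nearly all of them in GM-BMDMs. Mcpt8 (ENSMUSG00000022157), Prss34 (ENSMUSG00000056399), Cpa3 (ENSMUSG00000001865), Ms4a2 (ENSMUSG00000024680) and Fcer1a (ENSMUSG00000005339) summed to 15 to 60 counts in each GM library, or 0.757 to 2.79 CPM, and to 0 to 2 counts in each M library. Over the 8 libraries of each growth factor this was 278 counts in GM and 5 in M.

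Cpa3 was the best covered of them. In GM-TC it had 8 and 16 counts, against 16 and 10 in GM-noTC. After LPS its counts in GM were 27 and 37 on TC against 21 and 21 on noTC. Of the M libraries, 1 in M-TC and 1 in M-TC-LPS had 1 count, and the rest had 0. Every GM library thus lay above the floor and every M library under it. In GM-TC Prss34 had 2 and 9 counts, against 7 and 6 in GM-noTC. After LPS it had 9 and 15 counts on TC against 14 and 10 on noTC. In the M libraries Prss34 had 1 count in all, in M-TC.

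The basophil protease Mcpt8 had 0 and 2 counts in GM-TC, against 1 and 0 in GM-noTC. After LPS it had 3 and 5 counts on TC against 3 and 2 on noTC, and it had 0 in all M libraries. Only the second library of GM-TC-LPS lay above the floor. The IgE receptor was counted as sparsely. Its beta chain Ms4a2 had 2 to 9 counts in the GM libraries, 32 in all, and 2 counts over the M libraries. Its alpha chain Fcer1a had 1 count in a library of GM-TC-LPS, 1 in a library of GM-noTC, and 0 elsewhere, so its expression was not detectable at this depth. The gamma chain Fcer1g, which macrophages use for other Fc receptors, lay between 351 and 615 CPM in GM and between 452 and 997 CPM in M.

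**Figure D1:**
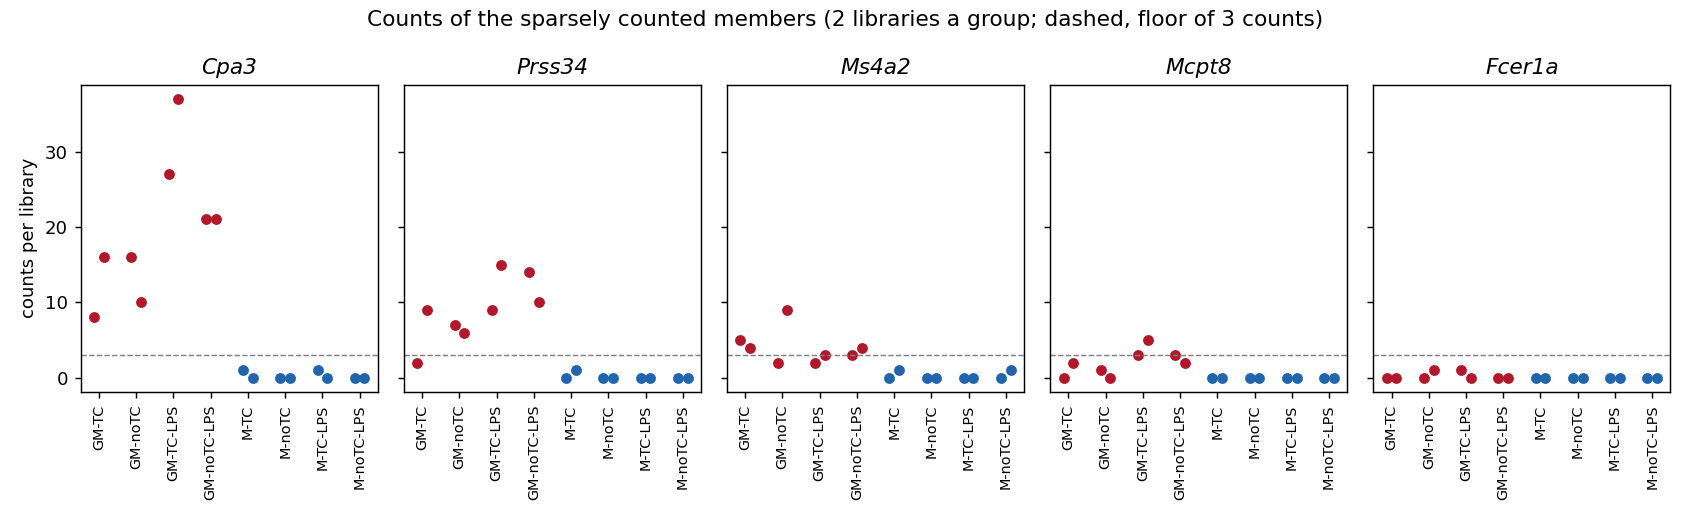
Counts per library (vertical axis) of Cpa3, Prss34, Ms4a2, Mcpt8 and Fcer1a in the 8 groups (horizontal axis), with 1 point per library, GM in red and M in blue, and a dashed line at the floor of 3 counts. All M libraries lie at 0 or 1 count of each gene, and Cpa3 reaches 37 counts in GM-TC-LPS.

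Other genes that define the 2 cell types differed in level, and the proteases and receptors most particular to mast cells were absent or had few counts. Among mast cell proteases, Tpsab1 and Mcpt4 had 0 counts in all 16 libraries, Cma1 had 1 and Tpsb2 had 5. The mast cell receptor Mrgprb2 had 1 count in all. The basophil cytokine Il4 had 4 counts and Il13 had 47, all of them in GM. Other listed genes were better covered. Cyp11a1, a steroid synthesis enzyme on the basophil list, had 384 counts in GM and 2 in M. Rab27b, a GTPase of granule release, had 483 counts in GM and 18 in M, and the integrin Itga2b, which platelets also carry, had 1324 and 97. Il1rl1, the receptor of IL-33 on mast cells and basophils, had 487 counts in GM and 350 in M, and the transporter Slc18a2 had 572 and 363, so these 2 were counted under both growth factors. Granule genes of eosinophils, a related lineage, were low: Epx had 11 counts in GM and 0 in M, and Prg2 had 11 and 3. Gata1, a factor of mast cells, eosinophils and red cell precursors, had 72 counts in GM and 3 in M. In the same GM libraries the eosinophil surface gene Siglecf lay between 52.7 and 79.9 CPM and the ribonuclease Ear2 between 59.0 and 90.6 CPM, against at most 3.49 and 0.738 CPM in M. The eosinophil marker Ccr3 went the other way, with 28 counts in GM and 363 in M. Which cells held these reads was not tested.

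**Figure D2:**
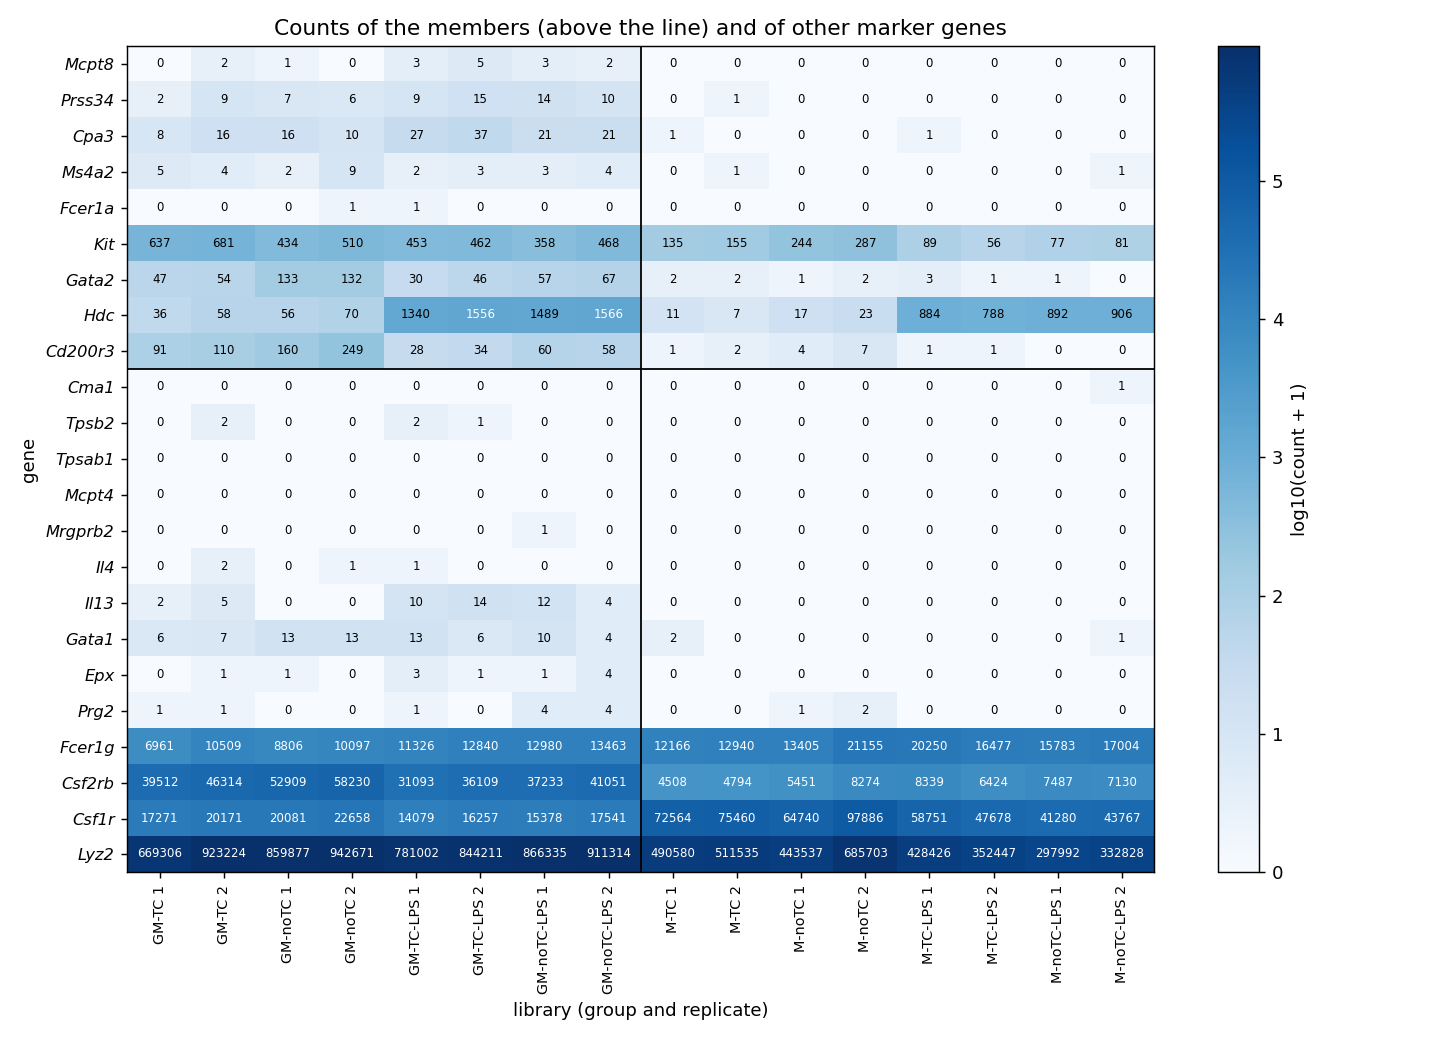
Counts of the 9 genes (rows above the horizontal line) and of other marker genes (rows under it) in each of the 16 libraries (columns, GM left of the vertical line), with each count printed in its cell and shaded by log10(count + 1). The mast cell proteases Cma1, Tpsb2, Tpsab1 and Mcpt4 hold at most 2 counts in any library, whereas Kit holds 56 to 681.

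To ask whether growth factor changed the 9 genes, GM was compared with M on each dish and in each treatment. All 6 tested genes were called higher in GM in all 4 comparisons, while 32.6% of tested genes were called higher in GM-TC than in M-TC and 28.9% lower. The shares were 31.4% and 30.7% for noTC at steady state, 33.9% and 32.9% for TC with LPS, and 33.5% and 32.6% for noTC with LPS. Prss34, Cpa3, Gata2 and Cd200r3 passed the filter only through their GM groups, so the count of 6 is a description. Scaling by library size alone, without TMM factors, moved the median of all genes by -0.31 (TC) and -0.29 (noTC) at steady state, and the share of calls that were higher in GM went from 53.0% to 27.9% and from 50.6% to 27.5%. The 6 genes stayed higher in GM under it.

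Kit (ENSMUSG00000005672), the receptor of stem cell factor, was the only one of the 9 that was well covered in every group at steady state. In GM at steady state it stood at 32.2 and 27.4 CPM on TC against 17.7 and 18.8 CPM on noTC, and in M at 5.38 and 5.80 CPM on TC against 8.22 and 6.67 CPM on noTC. After LPS the levels in GM were 23.4 and 21.5 CPM on TC against 17.0 and 21.4 CPM on noTC, and those in M were 4.38 and 3.25 CPM against 3.95 and 4.04 CPM. The 8 GM libraries all lay above the 8 M libraries. On TC dishes at steady state Kit was 2.41 higher in GM on the log2 scale (SE 0.133, adjusted p = 5.0e-13), from means of 29.8 ± 3.35 and 5.59 ± 0.293 CPM (SD, n = 2). The log2 difference was 1.31 on noTC dishes (SE 0.126), 2.54 on TC with LPS (SE 0.156) and 2.26 on noTC with LPS (SE 0.156). In the order of group means, GM-noTC-LPS and GM-noTC overlapped, as did M-noTC-LPS and M-TC-LPS.

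Gata2 (ENSMUSG00000015053) was above the floor in GM libraries alone. GM-TC held 47 and 54 counts, and GM-noTC held 133 and 132. After LPS there were 30 and 46 counts on TC against 57 and 67 on noTC. The M libraries had 0 to 3 counts, at or under the floor in all 8. The ratio of GM-TC to M-TC, from 101 counts against 4, was 29.3, and the ratio of GM-noTC to M-noTC, from 265 against 3, was 125, with a 95% counting interval of 42.2 to 608. These exact intervals cover counting error only.

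Cd200r3 (ENSMUSG00000036172) was likewise highest in GM-noTC and lowest among the GM groups in GM-TC-LPS. In GM-TC it stood at 4.59 and 4.43 CPM, against 6.52 and 9.20 CPM in GM-noTC. After LPS these levels were 1.45 and 1.58 CPM on TC against 2.84 and 2.65 CPM on noTC. No M library exceeded 0.163 CPM, and of the M libraries those of M-noTC alone, at 4 and 7 counts, lay above the floor. At steady state the ratio of GM-TC to M-TC was 77.7 from 201 counts against 3 (95% counting interval 26.2 to 380). Against M-noTC-LPS, where both libraries had 0 counts, Cd200r3 was at least 18.1-fold higher in GM-noTC-LPS, with the floor taken as 3 counts per library. Its deposited counts were not whole in any GM library, so some reads had been divided between genes. The related receptors Cd200r4 and Cd200r1 were far more abundant. Cd200r3 counts were 1.14% to 5.14% of those of Cd200r4 in GM and at most 0.197% in M. In the M libraries Cd200r4 still had 2467 to 3596 counts. The relative Cd200r2 was sparser than Cd200r3 in GM, with 259 counts against 790. No stretch of 50 bases was shared between annotated Cd200r3 transcripts and those of the other CD200 receptors. With 145 other genes, 2.79% of its stretches of 50 bases were shared.

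Among the granule proteases, the ratio of GM-TC to M-TC was 12.8 for Prss34 (11 counts against 1, 95% counting interval 1.86 to 549) and 27.8 for Cpa3 (24 against 1, interval 4.54 to 1145). Where the M group had no count, Prss34 was at least 3.07-fold higher in GM-noTC, at least 3.63-fold higher in GM-TC-LPS and at least 3.69-fold higher in GM-noTC-LPS. Cpa3 was at least 6.19-fold higher in GM-noTC and at least 6.43-fold higher in GM-noTC-LPS. The Prss34 call on TC dishes at steady state (adjusted p = 0.025) was lost without the second library of GM-TC (adjusted p = 0.35) or the first of M-TC (0.14), and in DESeq2 (0.087). In a fit without the expression filter, Ms4a2 was called between GM-noTC and M-noTC (adjusted p = 0.015) and in none of the other 3 comparisons (0.13 to 0.28), and Mcpt8 and Fcer1a were called in none of the 4 (0.094 to 1).

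**Figure D3:**
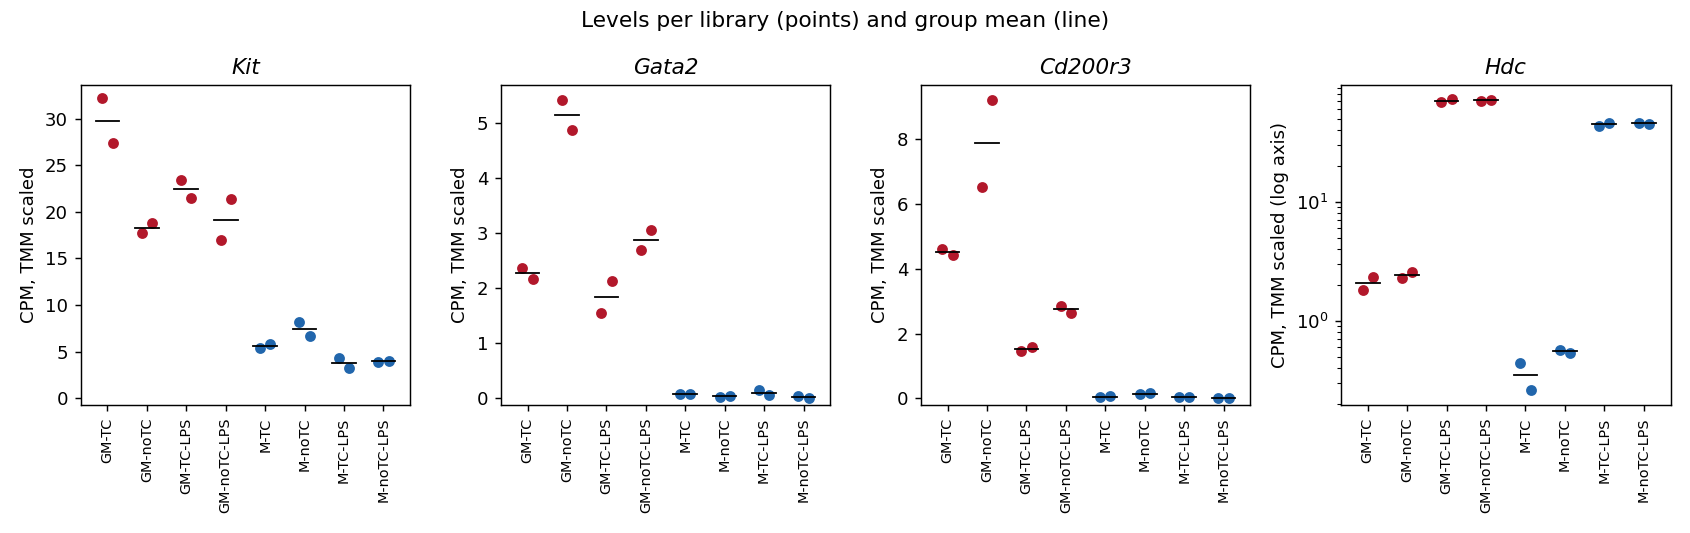
TMM scaled CPM (vertical axes, a log axis for Hdc) of Kit, Gata2, Cd200r3 and Hdc in the 8 groups (horizontal axes), with 1 point per library, the group mean as a line, GM in red and M in blue. Kit, Gata2 and Cd200r3 separate by growth factor, and Hdc separates by LPS, from at most 2.59 CPM at steady state to at least 43.5 CPM after it.

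Hdc (ENSMUSG00000027360), the enzyme that makes histamine, had another pattern and changed most with LPS. At steady state GM stood at 1.82 and 2.34 CPM on TC against 2.28 and 2.59 CPM on noTC, and M at 0.439 and 0.262 CPM on TC against 0.573 and 0.534 CPM on noTC. After LPS the levels in GM were 69.3 and 72.3 CPM on TC against 70.5 and 71.4 CPM on noTC, and those in M were 43.5 and 45.8 CPM against 45.8 and 45.2 CPM. The dishes overlapped in both growth factors after LPS, and the growth factors did not. LPS raised Hdc by 5.07 on the log2 scale in GM-TC (SE 0.104, adjusted p = 5.1e-21), 4.86 in GM-noTC (SE 0.098), 6.98 in M-TC (SE 0.145) and 6.36 in M-noTC (SE 0.123). The log2 response of GM minus that of M was -1.91 on TC (SE 0.287, adjusted p = 1.2e-05) and -1.50 on noTC (SE 0.223, adjusted p = 1.2e-05). Such a difference between LPS responses was called in 41.1% of tested genes on TC and in 36.2% on noTC.

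GM stayed above M in Hdc at each stage, by 2.58 on the log2 scale on TC (SE 0.270) and 2.14 on noTC (SE 0.208) at steady state, and by 0.67 (SE 0.067) and 0.64 (SE 0.067) after LPS. The steady state levels of Hdc in M were 1.42% to 3.11% of its mean in the other libraries. Among genes at 100 CPM or more in other libraries, the lowest such percentage, taken as an upper estimate of reads shared between libraries, was 0% in the M-TC libraries, and 0.506% and 0.590% in those of M-noTC. Subtracting reads at these shares left both interactions called, at log2 differences of -1.89 and -1.63. At steady state on TC the shares were at most 0.0223%, so the subtraction took next to nothing from those libraries. It therefore could not test the interaction on TC for shared reads at steady state.

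Beside Hdc, only Cpa3 was called higher upon LPS, and in GM-TC alone, among the 6 tested genes. Upon LPS, 4 of the 6 tested genes were called in GM-TC, of which 2 rose, while 32.8% of all tested genes rose and 34.2% fell. In GM-noTC 1 rose and 2 fell (33.6% and 34.0% of all), in M-TC 1 rose and 1 fell (37.6% and 36.4%), and in M-noTC 1 rose and 2 fell (36.4% and 35.9%). These changes are relative to the TMM factors, which separate the 2 treatments. With library size alone the median gene moved by -0.48 (TC) and -0.51 (noTC) in GM and by -0.83 (TC) and -0.73 (noTC) in M. In the same order, rises went from 48.9% to 21.5%, from 49.7% to 20.5%, from 50.9% to 19.1% and from 50.3% to 19.0% of the calls, and Hdc rose by 4.59, 4.35, 6.16 and 5.64.

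Cpa3 rose in GM-TC by 1.54 on the log2 scale (SE 0.470, adjusted p = 0.0071), from means of 0.524 to 1.56 CPM, and its value in GM-noTC was 0.94 (SE 0.488, adjusted p = 0.096). With library size alone its change in GM-TC was 1.06 (adjusted p = 0.046). The Cpa3 call was lost without the first library of GM-TC (adjusted p = 0.068) or the second of GM-TC-LPS (0.063), and in DESeq2 (0.056).

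Cd200r3 fell upon LPS by 1.57 in GM-TC (SE 0.242, adjusted p = 8.0e-06) and by 1.52 in GM-noTC (SE 0.205, adjusted p = 1.3e-06). It was also called lower in M-noTC, from 4 and 7 counts to 0 and 0, a difference for which the floor of 3 counts per library gives no usable fold. All 3 tested relatives among the receptors were also called lower upon LPS in GM-TC, with log2 changes of -2.06 for Cd200r1, -0.48 for Cd200r4 and -1.14 for Cd200r2. Cd200, the ligand of the inhibitory receptor, was higher (2.53). Gata2 fell by 0.84 in GM-noTC (SE 0.230, adjusted p = 0.0029), and its log2 change in GM-TC was -0.29 (SE 0.271, adjusted p = 0.35). The difference between these dishes was -0.55 (SE 0.357, adjusted p = 0.70) and was not called. With library size alone Gata2 was called in GM-TC as well (-0.77, adjusted p = 0.013).

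Kit fell upon LPS by 0.41 in GM-TC (SE 0.114, adjusted p = 0.0036), by 0.54 in M-TC (SE 0.185, adjusted p = 0.013) and by 0.88 in M-noTC (SE 0.168, adjusted p = 7.1e-05). In GM-noTC its log2 change was 0.07 (SE 0.119, adjusted p = 0.63), which turned to -0.44 (adjusted p = 0.0026) with library size alone. The LPS response of GM exceeded that of M by 0.95 on noTC (SE 0.207, adjusted p = 8.9e-04) and by 0.13 on TC (SE 0.219, adjusted p = 0.67). Leaving out the first library of GM-TC ended the Kit call there (adjusted p = 0.061), and leaving out the second library of M-TC (0.070) or of M-TC-LPS (0.16) ended the call in M-TC.

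To ask whether the dish surface changed the genes, noTC was compared with TC. At steady state 3 of 6 were called in GM-BMDMs, where calls were few: 4.69% of tested genes were higher on noTC and 2.85% lower. Gata2 was 1.18 higher on noTC on the log2 scale (SE 0.236, adjusted p = 0.0023), from 2.27 ± 0.140 to 5.15 ± 0.384 CPM (SD, n = 2). Cd200r3 was 0.81 higher (SE 0.191, adjusted p = 0.011), and Kit was lower, by -0.70 (SE 0.114, adjusted p = 2.9e-04). For all 3 the libraries of the 2 dishes did not overlap. Hdc differed by 0.21 (SE 0.174, adjusted p = 0.59), and Cpa3 and Prss34 had overlapping libraries.

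The Kit difference kept an adjusted p under 0.05 in every alternative that gave one. At 1.62-fold it lay under the 2-fold limit of the alternative with an unadjusted p, which Gata2 alone of the 9 genes passed. Gata2 was no longer called without the first library of GM-noTC (log2 difference 1.10, adjusted p = 0.060). Cd200r3 was no longer called without the second library of GM-noTC (0.53, adjusted p = 0.31) or of GM-TC (0.78, adjusted p = 0.076), in a fit of these 4 libraries alone (adjusted p = 0.077), or in DESeq2 (0.14).

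In M-BMDMs the dish effect on Kit went the other way at steady state, at 0.40 (SE 0.148, adjusted p = 0.052). It lay past the threshold without the expression filter (adjusted p = 0.014), in a fit of the libraries compared (0.037) and without the second library of M-noTC (0.030). The difference between the dish effects of GM and M on Kit was -1.10 (SE 0.187, adjusted p = 3.9e-04), in a comparison that called 11.2% of tested genes. By edgeR 0 of 6 genes were called between dishes in M at steady state, 1 of them (Kit) had an unadjusted p under 0.05, and DESeq2 called 0. Of all tested genes, 16.1% were higher on M-noTC and 11.1% lower.

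After LPS edgeR and DESeq2 each called 0 of the genes between dishes. In GM, Gata2 (log2 difference 0.63, SE 0.264, adjusted p = 0.27) and Cd200r3 (0.85, SE 0.259, adjusted p = 0.091) had an unadjusted p under 0.05. In M, 0 had. Here 2.08% of tested genes were higher and 0.727% lower on noTC in GM, and 10.4% and 12.9% in M, where library size alone took the share of calls higher on noTC from 44.5% to 70.5%. The difference between the LPS responses of the 2 dishes, called in 0.783% of tested genes in GM and in 10.6% in M, was called for 0 of the 6 by both tools. The unadjusted p was under 0.05 for Kit in GM (0.47, SE 0.165, adjusted p = 0.31) and for Cd200r3 in M. The dish by growth factor difference after LPS, called in 10.6% of tested genes, was called for 0 of the 6 by both tools, with Cd200r3 at an unadjusted p under 0.05.

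**Figure D4:**
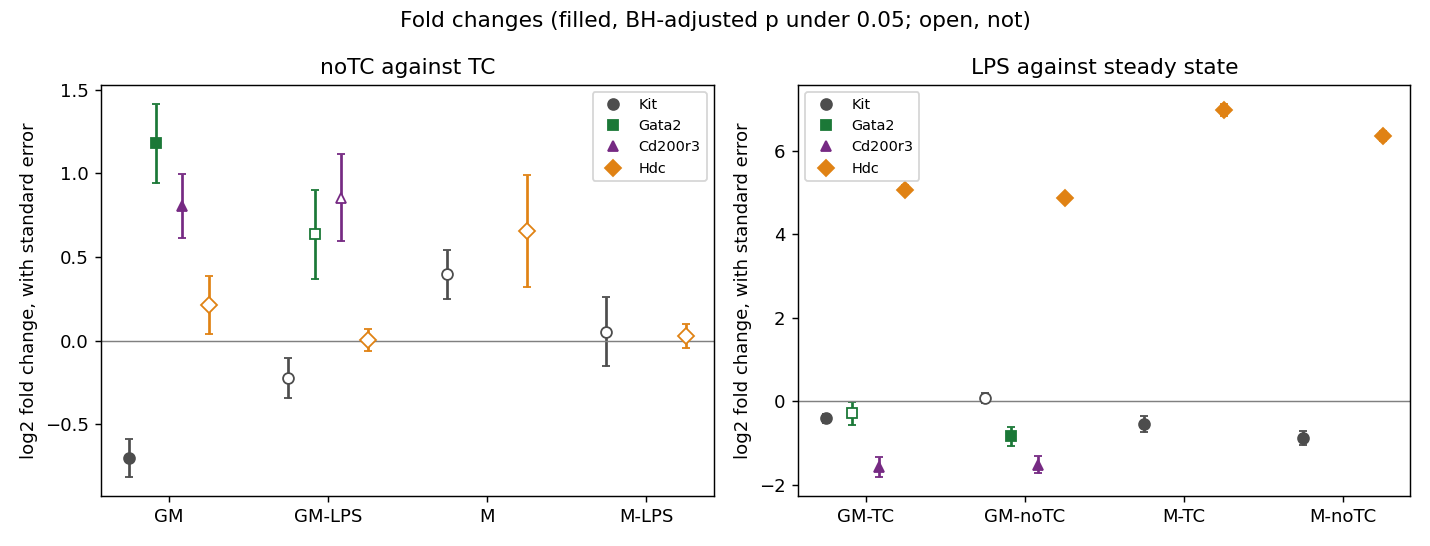
Log2 fold changes (vertical axes) of Kit, Gata2, Cd200r3 and Hdc for noTC against TC (left) and LPS against steady state (right) within each culture (horizontal axes), with bars for the standard error, and filled symbols for an adjusted p under 0.05. Gata2 and Cd200r3 are left out in M, where they had at most 7 counts per library. Kit is lower and Gata2 and Cd200r3 are higher on noTC in GM at steady state, and Hdc rises by 4.86 to 6.98 upon LPS.

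Levels can be compared between genes only per length of their exons, taken here as the merged exons of all annotated transcripts of a gene. In GM-TC at steady state, Kit stood at 3.34 CPM per kb, Cd200r3 at 0.754, Gata2 at 0.421, Cpa3 at 0.346, Hdc at 0.325 and Prss34 at 0.190. The SD (n = 2) was 0.026 for Gata2, 0.112 for Cpa3, 0.0573 for Hdc and 0.152 for Prss34. The order of neighbours from Gata2 down to Prss34 thus lay within the spread. In GM-TC-LPS the order was led by Hdc at 11.1 CPM per kb, ahead of Kit at 2.52 and Cpa3 at 1.03. By group mean Cpa3 was thus the highest of the 5 sparse genes in both groups, and Ms4a2 stood at 0.0735 and 0.0431 CPM per kb.

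The genes whose levels ran most alike across the 16 libraries were named for the 5 genes that reached 1 CPM in a group. The measure was Pearson's r of log2(CPM + 1), over libraries that share groups of 2 and are therefore no independent points. For Kit they included Aifm2 and Trpv2 (r = 0.98 each). For Gata2 they were Pacsin1, Arg1 and Flnc (0.99 each), and for Cd200r3 they were Ccdc65, Cdh1 and Adra2a (0.996, 0.995 and 0.990). Cpa3 was followed by Cystm1 (0.98), S1pr3 and Ocln (0.97 each). The genes nearest to Hdc were Gbp6, Etf1 and Slfn1 (0.998, 0.997 and 0.996).

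Genes that act with the 9 were taken from lists, and are given for GM-TC against M-TC beside the 32.6% of all tested genes that were higher and 28.9% that were lower. A listed gene that passed the expression filter only through GM, with fewer than 2 M libraries at the filter's minimum, could not be called lower in GM, and the number of such genes is given beside each list that holds any. Of the KIT and IL-3 family receptor pathway, 8 of 12 tested genes were higher in GM and 2 lower, with a median log2 difference of 1.05. The shared beta chain Csf2rb of the IL-3 and GM-CSF receptors was 3.43 higher on the log2 scale (SE 0.060), and its relative Csf2rb2 was 2.09 higher (SE 0.059). The kinase genes Jak2 and Pim1 of this pathway were higher by 0.93 and 2.05. Of the Fc epsilon receptor signalling genes, 6 of 17 were higher and 8 lower, with a median of -0.10. The median over all tested genes was 0.02. Among its most abundant members Lcp2, an adaptor, was higher by 0.98 and Syk by 0.14 (-0.17 with library size alone), and Fcer1g (-0.32) and the kinase Lyn (-0.18) were lower.

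Of the transcription factors that partner GATA2, 5 of 13 were higher and 4 lower, with a median of 0.09, and 2 of the 5 (Gata1 and Gata3) had passed only through GM. Lmo2 (-1.42) and Ikzf1 (-0.63) were lower, Mitf, a factor of mast cells and macrophages, was higher (0.49), and Spi1 was not called (0.09, SE 0.057, adjusted p = 0.18), though lower with library size alone (-0.22, adjusted p = 0.0012). Of the histamine genes, 3 of 4 tested were higher, with a median of 0.66, among them the vesicle transporter Slc18a2 (1.004, SE 0.273) and the degrading enzyme Hnmt (0.31, SE 0.113), whose call was lost with library size alone. Of the lipid mediator genes 4 of 7 were higher and 2 lower, with a median of 0.60, and the prostaglandin D synthase Hpgds had a log2 difference of -3.81. All 4 tested genes of the CD200 family were higher, among them Cd200r4 (0.86) and Cd200r1 (0.83), and 1 of them (Cd200r2) had passed only through GM.

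Of the mast cell protease and granule list only 3 of 11 genes could be tested, and all 3 were higher: Srgn (0.64), the proteoglycan core of many granules, Slc18a2 and Serpinb1a (3.90), of which Serpinb1a had passed only through GM. Srgn is abundant in macrophages, at 96.7 CPM or more in every library. Of the mast cell surface list 5 of 6 tested were higher and 1 lower, with a median of 0.99, and with Cd63 (0.89), Il1rl1 (1.09, SE 0.385) and Itga2b (3.56) higher and Milr1 (-1.50) lower. Of these 5, Rab27b had passed only through GM. With library size alone 4 of the 6 were higher and 1 lower, and the Il1rl1 call was lost (0.77, adjusted p = 0.081). Of the basophil list 7 of 10 tested were higher, of which 3 (Cyp11a1, Il13 and Itga2) had passed only through GM, so the 7 cannot be read against the share of all genes. The others included Csf1 (3.37), Ccl3 (1.58) and Cebpa (2.47), which other myeloid cells also use, and Cd69 was not called (-0.11, SE 0.176, adjusted p = 0.62). With library size alone the counts higher and lower were 7 and 4 of 12 for the KIT and IL-3 family pathway, 3 and 12 of 17 for Fc epsilon receptor signalling, 2 and 7 of 13 for the GATA2 partners, and 7 and 2 of 10 for the basophil list, in which Cd69 was then lower (-0.42, adjusted p = 0.034).

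After LPS the counts are given beside 33.9% of all tested genes higher and 32.9% lower in GM-TC-LPS than in M-TC-LPS. Of the basophil list 4 of 10 were higher and 4 lower, of the Fc epsilon receptor signalling genes 4 of 17 and 12, of the KIT and IL-3 family pathway 6 of 12 and 5, and of the CD200 family 1 of 4 and 2 (2 and 2 with library size alone). Of the mast cell surface list 4 of 6 were higher and 2 lower. On noTC dishes with LPS the basophil list again had 4 higher and 4 lower, and the Fc epsilon receptor signalling genes 4 and 10. Of these lists, the basophil list held 3 genes that had passed only through GM (Cyp11a1, Il13 and Itga2). The mast cell surface list held 1 (Rab27b) and the CD200 family 1 (Cd200r2). Such genes could not be called lower in GM, so the counts of those lists cannot be read against the share of all genes. All these counts stand side by side, and the difference between steady state and LPS was not tested for a list.

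Markers of other cells moved with growth factor as well, and their part in the differences above was not tested. In GM-TC against M-TC, 4 of 5 tested eosinophil markers were higher and 1 (Ccr3) lower. Of the tested genes of other lists, 3 of 4 neutrophil, 3 of 5 stem and progenitor, 4 of 5 erythroid and megakaryocyte, and 3 of 4 dendritic cell markers and the 1 lymphocyte marker were higher, and 0 were lower. All 4 tested neutrophil markers (Ngp, Ltf, Camp and Prtn3), 2 of the eosinophil markers (Ear1 and Ear6) and 2 of the erythroid and megakaryocyte markers (Gata1 and Hba-a1) had passed the filter only through GM. With library size alone 2 of 4 neutrophil and 3 of 5 erythroid and megakaryocyte markers were higher, and 1 of 5 stem and progenitor markers, Meis1, was lower (-0.63, adjusted p = 0.013). Of the macrophage markers 3 of 8 were higher and 5 lower. The stem and progenitor gene Cd34 was higher by 0.75 in GM-TC (SE 0.178) and Sox4 by 2.66 (SE 0.185).

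Between the dishes of GM at steady state, where Gata2, Cd200r3 and Kit differed, 4.69% of all tested genes were higher on noTC and 2.85% lower, and genes of several lists were called as well. The basophil list had 4 of 10 genes higher on noTC, among them Cd69 (1.36, SE 0.148) and Ccl3 (0.40, SE 0.061), and Csf1 was not called (0.01, SE 0.060, adjusted p = 0.95). Of the mast cell surface list 1 of 6 was higher, the IL-33 receptor Il1rl1 (1.39, SE 0.304, adjusted p = 0.0052), and 1 lower, Cd63 (-0.20, SE 0.051). Of the lipid mediator genes 2 of 7 were higher, the cyclooxygenase Ptgs2 (2.60, SE 0.175) and the lipoxygenase Alox5 (0.33, SE 0.082). Of the KIT and IL-3 family pathway 1 of 12 was higher, Jak2 (0.35, SE 0.060), and 1 lower. Of the Fc epsilon receptor genes 2 of 17 were higher, among them Lcp2 (0.17, SE 0.049), and of the GATA2 partners 1 of 13 was higher, Ikzf1 (0.20, SE 0.059).

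Markers of other cells moved between these dishes too, and their part in the differences of Gata2, Cd200r3 and Kit was not tested. Of the stem and progenitor markers 1 of 5 was higher on noTC, Cd34 (0.89, SE 0.156), and of the macrophage markers 3 of 8 were higher, Itgam (0.34), Adgre1 (0.30) and Fcgr1 (0.42), with 4 of 8 under library size alone. Of the erythroid and megakaryocyte markers 2 of 5 were lower, the platelet chemokines Pf4 (-0.36, SE 0.092) and Ppbp (-0.62, SE 0.158), and of the eosinophil markers 1 of 5 was lower, the ribonuclease Ear6 (-0.77, SE 0.078). DESeq2 called neither platelet chemokine. The mast cell protease, histamine, CD200 family, neutrophil, dendritic cell and lymphocyte lists held 20 tested entries together. Slc18a2 stands in both the protease and the histamine list and was counted in each. Among these entries edgeR and DESeq2 each called 0, and 4 had an unadjusted p under 0.05 by edgeR.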

How the data were processed

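RNA-seq of bone marrow derived cells in 8 groups of 2 libraries, which the study calls biological replicates, was analysed, and all 16 libraries were used with groups taken from the sample labels. The values deposited by the authors are expected counts per gene without normalization, estimated with RSEM. The submitters' processing notes also name fastp 0.18.0, Bowtie2 2.2.8, HISAT2 and StringTie 1.3.1. The genome build and annotation are not given in the sources used here. The deposited expected counts were rounded before testing, since 6.56% to 8.19% of them per library had a fractional part.

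Of the 22287 genes, 16756 had a count and 12514 passed edgeR's expression filter by group. TMM factors and a quasi-likelihood fit over the 8 groups were used (edgeR 4.0.16, R 4.3.3), with p-values adjusted over all tested genes by the Benjamini-Hochberg method and a biological coefficient of variation of 4.75%. Contrasts were growth factor, dish and LPS within the other conditions, and the differences between such effects. Total counts lay between 17527802 and 31458363 per library. Counting intervals of ratios are exact binomial intervals of the summed counts.

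The 9 genes, the lists of related genes and of cell type markers, and the tests were chosen with earlier results of these data known. All 9 genes are named, with the 3 genes most alike in level to each of those that reached 1 CPM, up to 4 of the most abundant genes of each list, and the defining mast cell genes Cma1, Tpsb2, Tpsab1, Mcpt4 and Mrgprb2 and eosinophil genes Epx and Prg2. Of the genes most alike to Kit, 1 is not reported here. Named beside them, after their values were seen, were Il4, Il13, Itga2, Cyp11a1, Il1rl1, Rab27b, Gata1, Gata3, Ear1, Alox5, Meis1, Adgre1 and Fcgr1. A list is described by its counts. Alternatives were DESeq2 1.42.0, its size factors, library size only, no expression filter, the libraries of the comparison only, an unadjusted p with a 2-fold change, a replicate block, a subtraction of shared reads, and leaving out each replicate. The test was checked on simulated counts with known changes. No 2 libraries of a group were alike within counting noise (chi-square per degree of freedom 1.92 to 12.9). Promoter windows came from RefSeq GRCm38.p6, and exon lengths and shared stretches of 50 bases from the GENCODE M21 transcripts.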

Additional observations from a re-analysis of the deposited data

Results flagged for a closer look

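A difference between the effects of 1 treatment in 2 settings was called for 2 of the 9 genes, of which 6 were tested. Of all tested genes, 41.1% were called for growth factor by LPS on TC and 36.2% on noTC. For dish by growth factor at steady state the share was 11.2%. The LPS response of Hdc differed between growth factors on both dishes. On TC it was 5.07 in GM and 6.98 in M on the log2 scale, a difference of -1.91 (SE 0.287, adjusted p = 1.2e-05). On noTC the difference was -1.50 (SE 0.223, adjusted p = 1.2e-05). LPS raised Hdc in all 8 treated libraries relative to the steady state libraries of the same culture, so the difference lies in the size of the rise.

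The LPS response of Kit differed between growth factors on noTC by 0.95 (SE 0.207, adjusted p = 8.9e-04), with log2 changes of 0.07 in GM-noTC and -0.88 in M-noTC. The effect of the dish on Kit at steady state differed between growth factors by -1.10 (SE 0.187, adjusted p = 3.9e-04), with -0.70 in GM and 0.40 in M. These 2 contrasts share the GM-noTC and M-noTC libraries at steady state.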

How the results depend on the processing

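Depth limited Mcpt8, Ms4a2 and Fcer1a most, and with 2 libraries a group an exact permutation test of a single gene could not go under p = 0.333. Of 44 results for single genes, which are those called and Kit between the dishes of M at steady state, 0 reversed. Their sizes were less steady. With 1 replicate of every group left out, log2 values were taken from CPM with a constant added. Of these, 42 stayed within the standard error times the square root of 2 of the main value, and 46 did not. DESeq2's size factors, library size only, the replicate block and the subtraction of shared reads left all 44 on their side of the threshold. Library size only also called Gata2 in GM-TC (5 genes in all) and Kit in GM-noTC (4 genes) as lower upon LPS, with a shift of the median gene by -0.48 and -0.51. With the replicate block the counts of called genes were unchanged, for example 6 of 6 in the comparison of GM-TC with M-TC and 3 of 6 between the dishes of GM. Same-numbered replicates did not deviate together (correlations of -0.069 to 0.062), so the numbers were not taken as pairs.

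With an unadjusted p and a 2-fold change in place of the adjusted p, 1 gene was counted between the dishes of GM at steady state (3 before), for LPS in M-TC (2), for growth factor by LPS on noTC (2), and for dish by LPS in M and dish by growth factor after LPS (0 each). Between the dishes of M at steady state 1 gene was counted without the expression filter and with the libraries of the comparison only. Leaving out each replicate in turn gave 0 to 1 for that comparison, 2 to 4 for LPS in GM-TC and 1 to 2 for LPS in M-TC, where a group of 1 library is assumed to vary like the others. The cause of these moves was not tested.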
